A study of Drosophila melanogaster with 399 samples.

Results

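Hr3 RNAi embryos of Drosophila melanogaster were compared with the mCherry RNAi embryos named as their control, in the windows 12–14 and 16–18 hours after egg lay (AEL). The libraries were chosen by their titles, as 2 Hr3 RNAi and 2 mCherry control libraries in each window, so that 8 of the 399 libraries of the series enter the main comparisons. The series measured poly(A) RNA of whole embryos after knockdown of single transcription factors (TFs), with control libraries for each set of crosses, which are mCherry RNAi for the sets used here. Females homozygous for da-Gal4, a driver active in all tissues, on both the second and the third chromosomes were crossed to homozygous males that carry a UAS short hairpin (shRNA) of the TRiP collection in the Valium20 vector. The knockdown hairpin targets Hr3, and the control hairpin targets mCherry, a gene that flies do not have. Hr3 was targeted by 1 hairpin line, so that effects of Hr3 loss and of binding to other transcripts cannot be told apart. Each library was made from a pool of embryos, and each group has 2 biosamples. The same control libraries also serve zfh2 RNAi and Sox102F RNAi. Hr3 RNAi and its control were also collected at 0–1.5 hours, with 2 libraries each.

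Hr3 (also DHR3) encodes a nuclear receptor of the ecdysone cascade, in which a pulse of the steroid ecdysone acts through the receptor pair EcR and Usp to switch on a first tier of regulators that includes Eip75B, Eip74EF and br. Hr3 follows these genes, and at the onset of metamorphosis it activates ftz-f1, while the Eip75B protein binds Hr3 and opposes it. A comparable pulse of ecdysone occurs in mid-embryogenesis, before the larval cuticle, the tracheal tubes and the nervous system mature, and Hr3 and ftz-f1 are both known to be needed in the late embryo. In bulk RNA of whole embryos, fewer cells of a type and less RNA per cell cannot be told apart.

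The 8 libraries held 53373424 to 75881422 counts on genes, above or near the median of 54799768 over the series. Replicates resembled each other closely, with Pearson's r of log2 CPM (counts scaled to a common library total) between 0.987 and 0.997 across genes within a library pair. Both arms of the set stood apart from other mCherry controls of the same windows. RNAs of the egg, summed over a list of 12, reached 1207 to 1375 CPM in Hr3 RNAi and 1326 to 1495 CPM in its control at 12–14 hours, against 291 to 582 CPM in the 8 other control libraries. At 16–18 hours the sums were 920 to 1010 CPM in Hr3 RNAi, 1062 to 1612 CPM in its control and 114.5 to 894 CPM in 36 other control libraries. Somatic muscle genes ran the other way at 12–14 hours, with 18649 to 18919 CPM in Hr3 RNAi and 18192 to 18269 CPM in its control, below the 31216 to 47406 CPM of the other controls. The 2 control libraries of 16–18 hours also differed from each other: the 25 Osiris genes, which are transiently expressed when cuticle is laid down, summed to 8.86 CPM in replicate 1 and 249 CPM in replicate 2. What part these features have in the results below was not tested.

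Hr3 itself (FBgn0000448, chromosome arm 2R, 10203995 to 10237348 on the minus strand in the dm6 genome) was lower in the knockdown. At 12–14 hours it had 2.95 and 1.96 CPM (202 and 143 counts) in Hr3 RNAi, against 6.39 and 5.71 CPM (407 and 360 counts) in the control. In the 16–18 hour window it had 1.85 and 1.71 CPM (144 and 134 counts) in Hr3 RNAi, against 2.94 and 3.51 CPM (137 and 196 counts) in the control. The groups did not overlap in either window. Both knockdown libraries also lay below both controls in 22% of all genes tested at 12–14 hours and 27% at 16–18 hours. The level of Hr3 left in the knockdown was 40.6% of the control at 12–14 hours and 55.1% at 16–18 hours. The fall passed the test at 12–14 hours, with a log2 fold change of −1.30 ± 0.21 (SE, 2 libraries per group) and an adjusted p of 0.0252 by edgeR's quasi-likelihood test. For the later window the log2 fold change was −0.86 ± 0.21, with an unadjusted p of 0.00905 and an adjusted p of 0.442, which did not pass. With all 10 mCherry controls of 12–14 hours the log2 fold change was −1.17 (adjusted p = 0.206, edgeR), and in 1 fit with zfh2 RNAi and Sox102F RNAi it was −1.28 (adjusted p = 0.403), neither of which passed. The difference between the windows was 0.57 on the log2 scale and did not pass either (adjusted p = 0.538, edgeR).

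These values can be set against every mCherry control of the series. Over all controls the median level of Hr3 was 0.265 CPM at 0–1.5 hours (38 libraries), 4.34 CPM at 6–8 hours (8 libraries), 19.5 CPM at 10–12 hours (12 libraries), 6.47 CPM at 12–14 hours (10 libraries) and 4.41 CPM at 16–18 hours (38 libraries). Both windows of the knockdown thus come after the highest of these medians. Without scaling beyond total counts, none of the 10 control libraries of 12–14 hours was at or below the higher of the Hr3 RNAi libraries, and 1 of 38 was at 16–18 hours. On the TMM scale used for the per-library values, the other controls ranged from 2.81 to 7.35 CPM at 12–14 hours and from 1.02 to 7.70 CPM at 16–18 hours, so that the lowest of them were within or below the Hr3 RNAi levels. Among libraries in which another factor was knocked down, 2 of 23 at 12–14 hours and 4 of 88 at 16–18 hours were as low. At 0–1.5 hours, when Hr3 was near its lowest level, the knockdown libraries held 8 and 14 Hr3 counts, against 56 and 79 counts in the control, and the log2 fold change of −2.68 had an unadjusted p of 0.0115 and an adjusted p of 0.734 by edgeR. All mCherry controls of that window ranged from 0 to 1.60 CPM, with a median of 0.265 CPM. The Hr3 RNAi libraries had 0.155 and 0.191 CPM, and their own control had 0.754 and 1.50 CPM, above that median. Somatic muscle and neuron genes were also lower in the knockdown there, with median log2 fold changes of −0.96 and −0.95. What part the control libraries have in the Hr3 difference of that window was not tested.

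**Figure D1:**
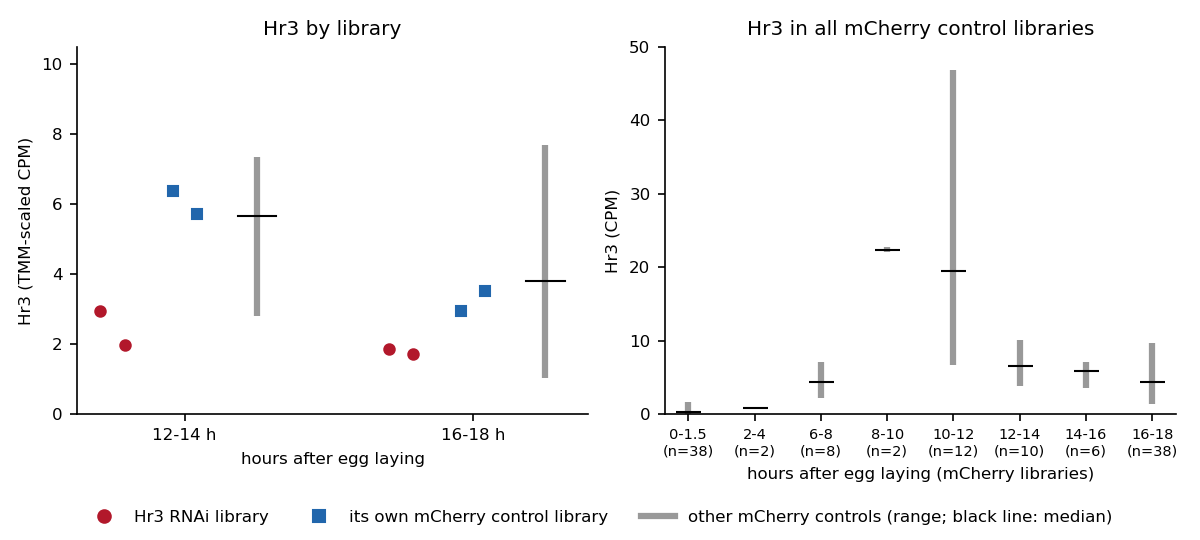
Left, level of Hr3 in CPM (vertical axis) in each library of Hr3 RNAi and of its mCherry control, with the range and median of the other mCherry controls, by window in hours after egg lay. Right, range and median of Hr3 in all mCherry controls by window, with the highest medians at 8–10 hours (22.4 CPM, 2 libraries) and 10–12 hours (19.5 CPM). The knockdown points (2.95 and 1.96 CPM, then 1.85 and 1.71 CPM) lie below the control points (6.39 and 5.71 CPM, then 2.94 and 3.51 CPM) in both windows.

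At 12–14 hours, 65 genes were higher in Hr3 RNAi (0.581% of 11179 genes tested) and 45 were lower (0.403%), so that 0.984% changed, where a change means an adjusted p (edgeR) no higher than 0.1 with a log2 fold change beyond 0.5 in size. DESeq2's Wald test called 88 higher (0.768% of 11461) and 46 lower (0.401%), or 1.17% in either direction. Digestive enzyme genes were among the largest increases, and the lower genes included cuticle genes, RNAs of the egg, Inos, a heat shock gene and Hr3. The median log2 fold change was 1.07 among the 65 higher genes and −0.75 among the 45 lower ones, and that of all genes tested was 0.00. Many of these genes also change with embryonic age: in 16 libraries of other control sets, 36 of the 65 higher genes rose and 13 fell between 12–14 and 16–18 hours, and of the 45 lower genes 20 fell and 1 rose. Of all genes in that comparison 1580 rose, 1127 fell and 8536 did neither. Whether the embryos of the 2 arms differed in age was not tested. The counts also moved with single libraries (edgeR): without Hr3 RNAi replicate 1 there were 69 higher and 115 lower genes, without Hr3 RNAi replicate 2 there were 294 and 74, without control replicate 1 there were 207 and 107, and without control replicate 2 there were 161 and 71.

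Several digestive enzyme genes rose at 12–14 hours. Jon25Bi (FBgn0020906, 2L, 4954279 to 4955144, minus strand), a serine protease of the larval midgut, had 6.16 and 3.80 CPM in Hr3 RNAi, against 0.518 and 0.713 CPM in the control. Both knockdown libraries lay far above both control libraries, and the log2 fold change was 3.01 ± 0.30 (adjusted p = 0.00358, edgeR). The trypsin gene betaTry (2R, 11346325 to 11347395, plus strand) had 4.19 and 3.02 CPM in Hr3 RNAi, against 0.738 and 0.412 CPM in the control, with a log2 fold change of 2.64 ± 0.32 (adjusted p = 0.0086, edgeR). Of the 16 genes tested from a list of midgut and digestive enzyme genes, 5 were higher and none was lower by edgeR (DESeq2 called 6 higher and none lower), and 11 had both knockdown libraries above both controls, an arrangement found in 19.1% of all genes tested. The other 3 called members were Jon25Bii, a neighbour of Jon25Bi (log2 fold change 2.35), and the trypsin genes epsilonTry (1.42) and alphaTry (0.89). The list's median was 0.45, and edgeR called 0.581% of all genes tested higher. Members that were not called included GATAe, a transcription factor gene of the endoderm, with a log2 fold change of 0.13, and the midgut gene mex1, with 0.05.

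Related genes were picked after their values were seen. Over all genes tested at 12–14 hours, edgeR called 0.581% higher and 0.403% lower, and DESeq2 called 0.768% higher and 0.401% lower. Among genes named Try, 3 were higher and 1 was lower of 10 tested, by both edgeR and DESeq2. The lower one, Try29F, had 24.8 and 27.2 CPM in Hr3 RNAi, against 44.9 and 44.1 CPM in the control (log2 fold change −0.78, adjusted p = 0.0086, edgeR). Among Jonah proteases 7 of 13 tested were higher and none was lower by edgeR and by DESeq2, with 1.82 and 0.645 CPM of Jon65Ai in Hr3 RNAi against 0.0471 and 0.159 CPM in the control. LysD, a lysozyme of the gut, had 5.78 and 4.50 CPM in Hr3 RNAi, against 1.54 and 1.68 CPM in the control (log2 fold change 1.67, adjusted p = 0.00934, edgeR). CG17362 had 2.16 and 0.905 CPM in Hr3 RNAi, against 0.110 and 0.0476 CPM in the control, and its log2 fold change of 4.25 ± 0.60 was among the 8 largest increases. Near-identical copies such as LysD and LysE can share reads, so that their separate values are uncertain. Several of the largest increases rest on almost no control reads. Amyrel, which is related to amylase, had 62 and 14 counts in Hr3 RNAi against 2 and 0 in the control; its adjusted p of 0.088 (edgeR) becomes 0.249 without Hr3 RNAi replicate 1. The gene lcs had 28 and 52 counts in Hr3 RNAi against 1 and 0 in the control. CG9040 had 35 and 22 counts in Hr3 RNAi against 0 and 1 in the control, and CG6295 had 17 and 22 counts in Hr3 RNAi against 1 and 0 in the control. With so few control counts, the fitted folds of these genes are not used here. Without control replicate 2 of 12–14 hours, the adjusted p of CG6295 became 0.275 (edgeR).

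Other mCherry controls show where these levels lie. In the 8 other control libraries of 12–14 hours Jon25Bi ranged from 0.572 to 38.1 CPM with a median of 4.69 CPM, so that the Hr3 RNAi libraries lay in the middle of that range and their own control at its lower end. Of the 65 higher genes, the mean of the Hr3 RNAi libraries was within the range of the 8 other controls for 43, above it for 13 and below it for 9. The mean of the own control was within that range for 37, below it for 28 and above it for none. These genes were selected for levels above the own control, which favours low values in that control. Shares over all genes tested are not given here. Against the same control libraries, the log2 fold change of Jon25Bi was 6.37 in zfh2 RNAi and 2.79 in Sox102F RNAi, and 59 of 63 and 54 of 58 of the higher genes tested there had a positive value in those knockdowns. These comparisons share their control libraries with Hr3 RNAi, so the shared direction is no separate support. With the zfh2 RNAi and Sox102F RNAi libraries in place of the control, the log2 fold change of Jon25Bi was −1.56 (adjusted p = 0.55, edgeR). With all 10 mCherry controls of the window it was −0.41 (adjusted p = 0.827).

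Spn28Da was among the 13 higher genes above the range of other controls. This gene (FBgn0051902, 2L, 7887693 to 7889129, minus strand), which encodes a serpin, a kind of protease inhibitor, had 12.4 and 9.78 CPM in Hr3 RNAi, against 2.43 and 3.01 CPM in the control. This had the smallest adjusted p of the window, 0.00195 by edgeR, with a log2 fold change of 2.03 ± 0.18, and was chosen after its values were seen. The other controls ranged from 0.674 to 2.97 CPM, all below both Hr3 RNAi libraries, while zfh2 RNAi had 2.06 and 1.64 CPM and Sox102F RNAi 3.51 and 3.73 CPM. Spn28Da was also called higher in 5 of 10 other knockdowns that have other controls, and 8 of 23 libraries of other knockdowns were at or above the lower of the Hr3 RNAi libraries. At 16–18 hours it had 2.74 and 1.10 CPM in Hr3 RNAi, against 0.408 and 0.698 CPM in the control (adjusted p = 0.442, edgeR).

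CG42753 (2R, 19635279 to 19635941, plus strand) had no count in the control arm. It had 25 and 30 counts in Hr3 RNAi at 12–14 hours and 54 and 19 counts at 16–18 hours. Against a floor of 3 counts over the control libraries of a window, it was at least 16.4-fold higher at 12–14 hours and at least 15.9-fold higher at 16–18 hours, a floor that covers counting error only. None of the 10 control libraries of 12–14 hours, none of the 38 of 16–18 hours and none of the 23 libraries of other knockdowns at 12–14 hours reached its lower Hr3 RNAi level, but 15 of 88 libraries of other knockdowns at 16–18 hours did. The edgeR adjusted p was 0.0364 at 12–14 hours and 0.442 at 16–18 hours.

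ImpE1, an ecdysone-inducible gene first known from imaginal discs, had 85.0 and 54.7 CPM in Hr3 RNAi, against 41.7 and 38.9 CPM in the control (log2 fold change 0.79, adjusted p = 0.0659, edgeR). Its log2 fold change dropped to 0.44 without Hr3 RNAi replicate 1, since that library had the higher level. With zfh2 RNAi and Sox102F RNAi as the reference it was 0.13 (adjusted p = 0.888, edgeR). With all mCherry controls it was 0.87 (adjusted p = 0.225, edgeR). ImpE1 was the only member called by edgeR among 13 tested of the list of other ecdysone-induced genes, whose median was 0.11. DESeq2 also called ImpE2, with 126 and 81.7 CPM in Hr3 RNAi against 66.8 and 71.6 CPM in the control. Prx2540-1, a peroxiredoxin gene chosen after its values were seen, had 44.3 and 23.3 CPM in Hr3 RNAi, against 10.96 and 6.45 CPM in the control (adjusted p = 0.0152, edgeR), and its near-identical neighbour Prx2540-2 was called too. Obp56g, which encodes an odorant-binding protein, had 31 and 28 counts in Hr3 RNAi against 4 and 1 in the control, and its adjusted p of 0.0837 (edgeR) became 0.273 without control replicate 2. Of 15 transcripts tested from the mitochondrial genome, mt:ND2, a subunit of complex I, was the only one called by edgeR, with 90.6 and 122 CPM in Hr3 RNAi against 62.9 and 67.8 CPM in the control, and its log2 fold change of 0.70 was 0.47 without Hr3 RNAi replicate 2. DESeq2 called mt:ND2 and mt:ND6 (log2 fold change 0.69), and mt:ND4L (1.51) and mt:ATPase8 (1.19) passed neither test.

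Several cuticle genes were in the lower group. Ccp84Ae (FBgn0004779, 3R, 6690887 to 6691758, minus strand), a cuticle protein gene, had 10.0 and 9.20 CPM in Hr3 RNAi, against 18.9 and 23.4 CPM in the control. The libraries of the 2 arms did not overlap, and the log2 fold change was −1.14 ± 0.13 (adjusted p = 0.00801, edgeR; chosen after its values were seen). Lcp65Af, a larval cuticle protein gene, had 9.72 and 8.05 CPM in Hr3 RNAi, against 15.8 and 12.9 CPM in the control (log2 fold change −0.69, adjusted p = 0.0657, edgeR). Cpr78Cb, of the large Cpr family of chitin-binding cuticle proteins, had 11.7 and 12.6 CPM in Hr3 RNAi, against 17.3 and 17.3 CPM in the control (log2 fold change −0.51, adjusted p = 0.0752, edgeR), and leaving out Hr3 RNAi replicate 1 gave −0.45. DESeq2 called no Cpr gene lower in this window. For Cpr78Cb its log2 fold change fell just short of 0.5 in size, with an adjusted p of 0.0415 by DESeq2. Lcp65Af and Cpr78Cb were the only members called lower by edgeR of 38 tested Tweedle and Lcp genes and 55 tested Cpr genes, and the list medians were −0.07 and −0.04. In the first list 12 members and in the second 15 had both knockdown libraries below both controls, an arrangement found in 22% of all genes tested.

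Several genes with no given name fell beside them. CG14570 had 3.14 and 2.40 CPM in Hr3 RNAi, against 5.79 and 8.24 CPM in the control (log2 fold change −1.34, adjusted p = 0.0205, edgeR). CG45207 had 1.28 and 1.11 CPM in Hr3 RNAi, against 2.90 and 2.81 CPM in the control (log2 fold change −1.25, adjusted p = 0.0526). CG13069, chosen after its values were seen, had 17.6 and 16.5 CPM in Hr3 RNAi, against 29.7 and 28.9 CPM in the control (log2 fold change −0.78, adjusted p = 0.00934). Both arms lay below the other controls for most of these genes: Ccp84Ae ranged from 45.1 to 200 CPM and Cpr78Cb from 46.5 to 133 CPM in the 8 other control libraries. Of all 45 lower genes, the mean of the Hr3 RNAi libraries was below that range for 35, above it for 9 and within it for 1. The mean of the own control was below it for 27, above it for 10 and within it for 8. These genes were selected for levels below the own control, which favours low values in the knockdown. Against the shared control, 42 of 45 of these genes were also negative in zfh2 RNAi and 22 of 45 in Sox102F RNAi.

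Of 12 egg RNAs tested, 2 were lower in Hr3 RNAi at 12–14 hours, where edgeR called 0.403% of all genes tested lower. The group as a whole was high in both arms. The list holds maternal RNAs, of which osk (FBgn0003015, 3R, 8935126 to 8938395, plus strand), the determinant of the germ plasm, had 26.1 and 24.0 CPM in Hr3 RNAi, against 38.2 and 39.1 CPM in the control. The other controls had 0.400 to 4.21 CPM of osk, below all 4 libraries of the set. Its log2 fold change was −0.63 ± 0.09 (adjusted p = 0.0176, edgeR). The cell cycle kinase gene png had 12.0 and 12.2 CPM in Hr3 RNAi, against 16.1 and 18.6 CPM in the control (log2 fold change −0.52, adjusted p = 0.0837, edgeR), and this call was lost without control replicate 2 (adjusted p = 0.309). These 2 were the members called by edgeR and by DESeq2, 10 of the 12 were negative, and the median was −0.26. In 8 of the 12, both knockdown libraries lay below both controls, an arrangement found in 22% of all genes tested. Outside the list and chosen after their values were seen, yl, which encodes the yolk protein receptor, had 106 and 103 CPM in Hr3 RNAi against 161 and 153 CPM in the control. The gene fs(1)Ya, needed at fertilization, had 33.3 and 31.3 CPM in Hr3 RNAi, against 44.3 and 47.1 CPM in the control (adjusted p = 0.0415, edgeR). The source of these RNAs in embryos of this age, and their part in other results, was not tested.

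Inos, an enzyme gene, and Hsp70Bb, a heat shock gene, fell as well. Inos (FBgn0025885, 2R, 7454922 to 7458874, minus strand), the synthase that makes inositol phosphate from glucose phosphate, had 22.0 and 18.2 CPM in Hr3 RNAi, against 37.0 and 35.6 CPM in the control. Both knockdown libraries were below all 8 other controls, which ranged from 25.03 to 35.5 CPM, and zfh2 RNAi had 37.0 and 38.9 CPM and Sox102F RNAi 31.2 and 24.9 CPM. By total counts, 6 of 23 libraries of other knockdowns were at or below the higher Hr3 RNAi library, and 12 of 88 at 16–18 hours. The log2 fold change of Inos was −0.86 ± 0.11 (adjusted p = 0.00979, edgeR; chosen after its values were seen in this window, and named by rule over both windows). Hsp70Bb, which encodes an inducible chaperone, had 6.71 and 5.21 CPM in Hr3 RNAi, against 14.6 and 13.7 CPM in the control (log2 fold change −1.25 ± 0.14, adjusted p = 0.00801, edgeR). It was the only heat shock gene called of 9 tested. The Hsp70 genes are near-identical copies, and Hsp70Ba, Hsp70Bc and Hsp70Ab had positive values of 0.24, 0.36 and 0.50 that did not pass, so the value of this copy is uncertain. Over other sets Hsp70Bb varied widely, with 2.18 to 49.6 CPM in the other controls. Its log2 fold change was −0.62 (adjusted p = 0.463, edgeR) with zfh2 RNAi and Sox102F RNAi as the reference. With all mCherry controls it was −1.92 (adjusted p = 0.223, edgeR).

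The remaining large decreases involve low levels. BomBc2, a Bomanin gene whose peptides act in the immune response downstream of Toll, had 0.277 and 0.631 CPM in Hr3 RNAi, against 2.36 and 4.20 CPM in the control (log2 fold change −2.84 ± 0.40, adjusted p = 0.0142, edgeR). It was also called lower in 6 of 10 other knockdowns that have other controls. The antisense transcript asRNA:CR43767 had 9 and 27 counts in Hr3 RNAi against 82 and 80 in the control (log2 fold change −2.33, adjusted p = 0.0657, edgeR). It was as low in zfh2 RNAi (0.0433 and 0.172 CPM) and Sox102F RNAi (0.132 and 0.193 CPM), and reads of an antisense gene and its partner may not be separable, since whether the counting used strand is not given in the sources used here. CG16995 had 5 and 1 counts in Hr3 RNAi against 36 and 27 in the control, and was near 0 in both other knockdowns of the set. CG31928 had 4 and 1 counts in Hr3 RNAi against 37 and 43 in the control (log2 fold change −4.08, adjusted p = 0.0319, edgeR). It was not low in the other knockdowns of the set, with 0.663 and 0.416 CPM in zfh2 RNAi and 0.616 and 0.890 CPM in Sox102F RNAi, and all 23 libraries of other knockdowns were above both Hr3 RNAi libraries.

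**Figure D2:**
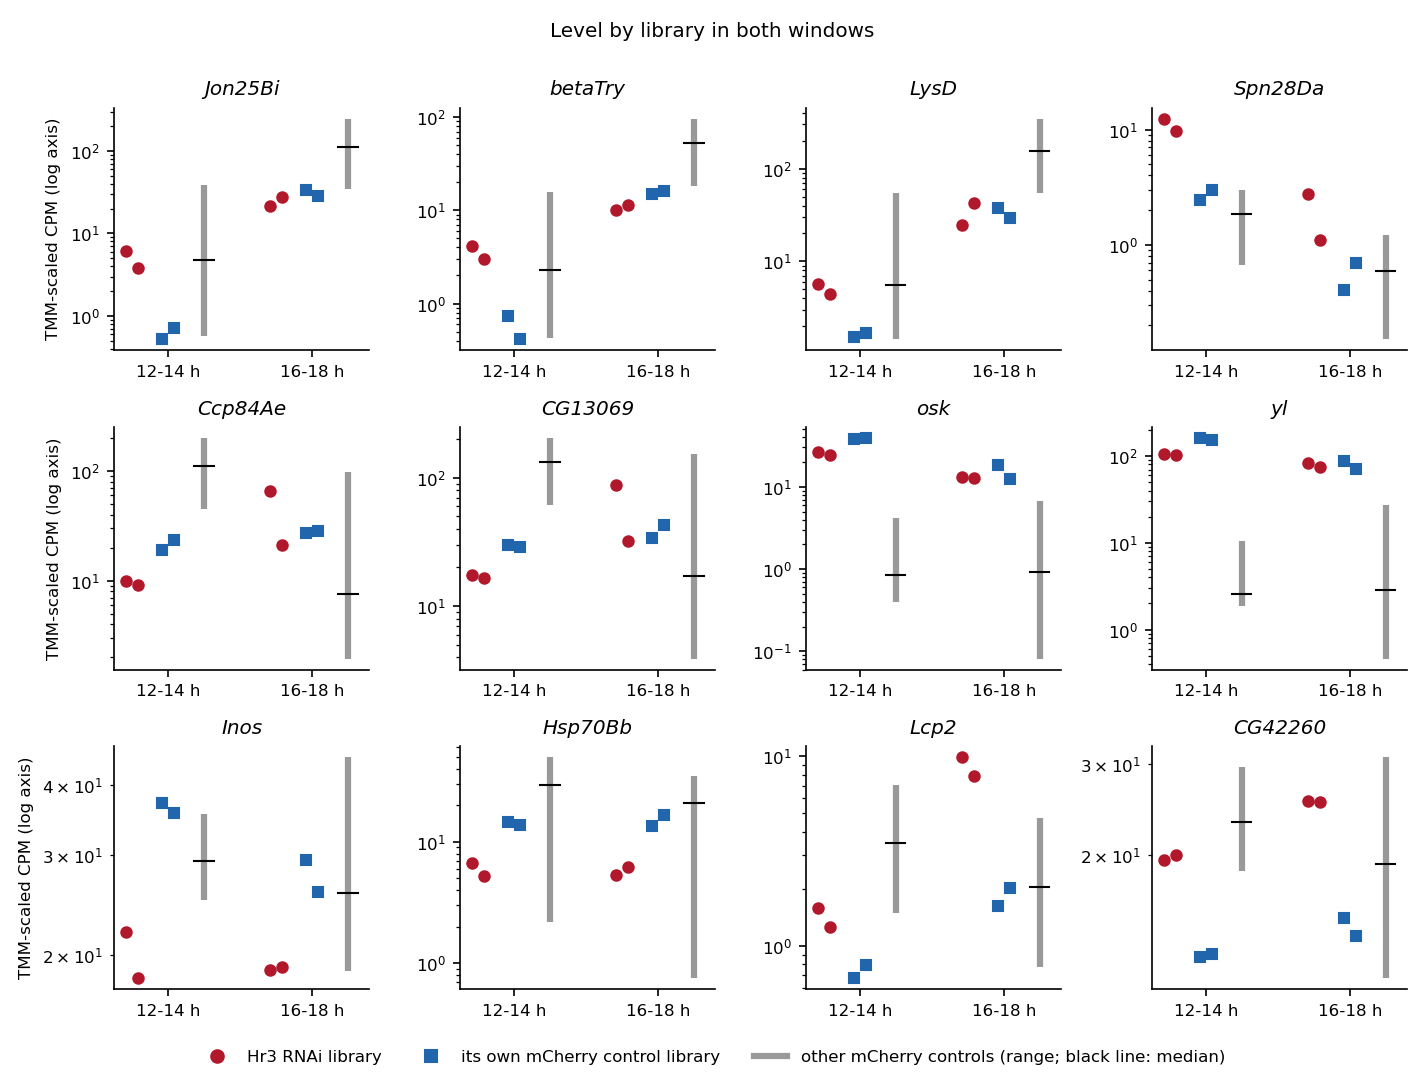
Level in CPM on a log axis of 12 genes in each library of Hr3 RNAi and of its own mCherry control, with the range and median of the other mCherry controls, by window in hours after egg lay. Jon25Bi of Hr3 RNAi (6.16 and 3.80 CPM at 12–14 hours) lies within the other controls and above its own control, while both arms lie below the other controls for Ccp84Ae and above them for osk.

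**Figure D3:**
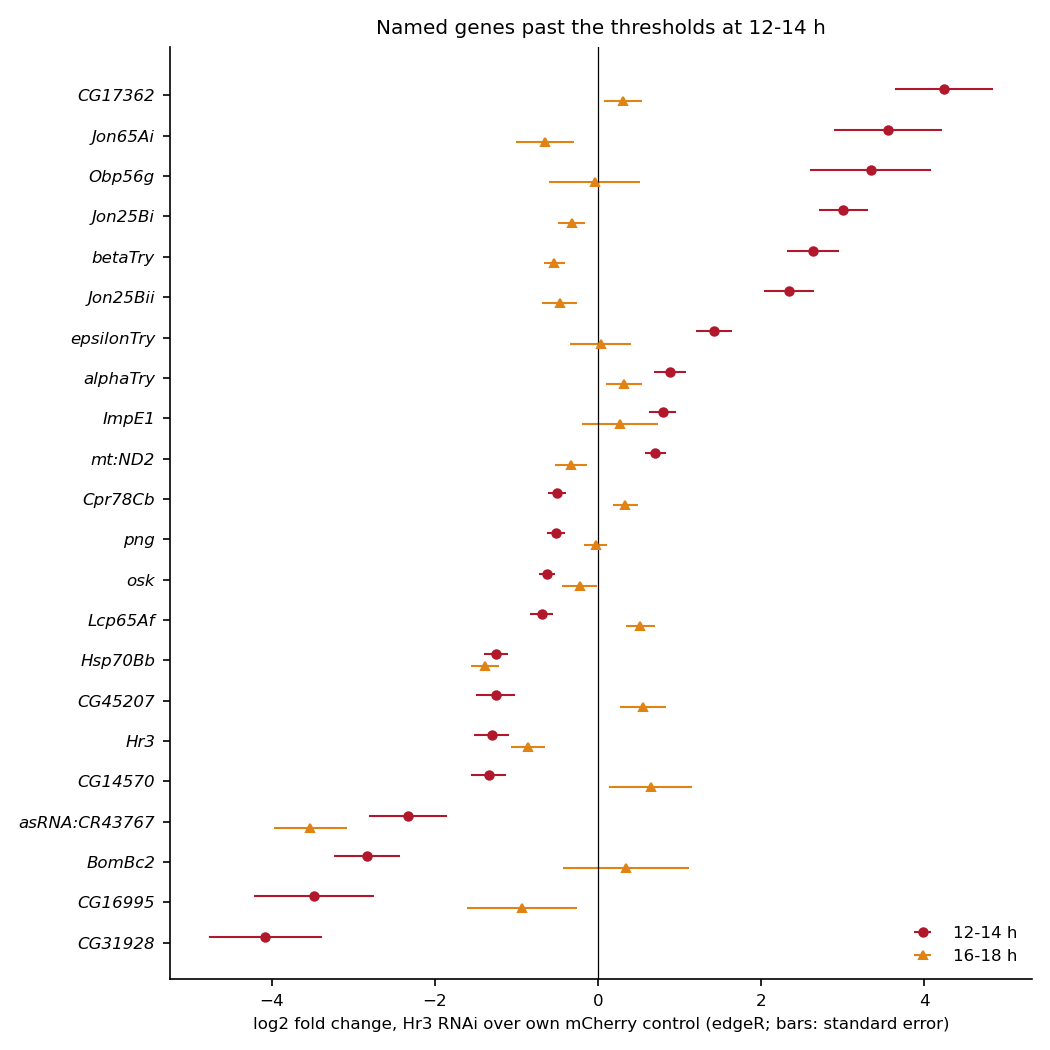
Log2 fold change of Hr3 RNAi over its mCherry control, with its standard error, for 22 genes named by rule and past the thresholds at 12–14 hours, at 12–14 and at 16–18 hours. Jon25Bi lies at 3.01 at 12–14 hours and at −0.32 at 16–18 hours, whereas Hsp70Bb (−1.25 and −1.39) and asRNA:CR43767 (−2.33 and −3.53) are negative in both.

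Over both windows, 15 genes were higher (0.13% of 11577 genes tested) and 3 were lower (0.0259%) by edgeR, or 0.155% in either direction, with the change averaged over the windows. DESeq2 called 114 higher (0.98% of 11634) and 9 lower (0.0774%), or 1.06% in either direction. The smallest adjusted p, 0.0336, belonged to CG42260 (FBgn0259145, 2R, 22740999 to 22798289, minus strand). It had 19.6 and 19.95 CPM in Hr3 RNAi against 12.7 and 12.8 CPM in the control at 12–14 hours. In the later window it had 25.4 and 25.3 CPM in Hr3 RNAi, against 15.1 and 13.9 CPM in the control. The knockdown libraries were above both control libraries in each window, the log2 fold change over both windows was 0.77 ± 0.07, and CG42260 was chosen after its values were seen. In the other controls it ranged from 18.6 to 29.7 CPM at 12–14 hours and from 11.5 to 30.9 CPM at 16–18 hours, which includes the knockdown libraries.

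The larval cuticle genes Lcp1 and Lcp2 rose over both windows, mainly through the later one. Lcp2 (FBgn0002533, 2R, 8433797 to 8434785, minus strand) had 1.59 and 1.26 CPM in Hr3 RNAi against 0.675 and 0.793 CPM in the control at 12–14 hours. In the later window it had 9.86 and 7.88 CPM in Hr3 RNAi, against 1.63 and 2.02 CPM in the control. Its log2 fold change over both windows was 1.66 ± 0.18 (adjusted p = 0.0498, edgeR). In the same window Lcp1 had 2.86 and 2.87 CPM in Hr3 RNAi, against 0.644 and 0.608 CPM in the control, and over both windows its log2 fold change was 1.74 ± 0.26 (adjusted p = 0.0998). Both Hr3 RNAi libraries of 16–18 hours were above all 38 mCherry control libraries for both genes. At 12–14 hours, only 2 of 10 mCherry control libraries were at or below the higher Hr3 RNAi library for each gene. With all mCherry controls as the reference, the log2 fold change over both windows was 0.37 for Lcp2 (adjusted p = 0.362, edgeR). For Lcp1 it was 0.41 (adjusted p = 0.265, edgeR). Lcp1 and Lcp2 were the only members called of 39 tested Tweedle and Lcp genes. At 16–18 hours, 10 of 88 libraries of other knockdowns reached the Lcp2 level of the lower Hr3 RNAi library.

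Inos and Hsp70Bb were lower over both windows as well. Inos had 18.8 and 19.0 CPM in Hr3 RNAi at 16–18 hours, against 29.4 and 25.8 CPM in the control, and its log2 fold change over both windows was −0.65 ± 0.08 (adjusted p = 0.0553, edgeR). Hsp70Bb had 5.37 and 6.24 CPM in Hr3 RNAi at 16–18 hours, against 13.6 and 16.8 CPM in the control. Over both windows its log2 fold change was −1.27 ± 0.14 (adjusted p = 0.0498, edgeR). With zfh2 RNAi and Sox102F RNAi as the reference, Hsp70Bb was −0.44 (adjusted p = 0.353, edgeR) and Inos −0.74 (adjusted p = 0.0215). With all mCherry controls Hsp70Bb was −1.86 (adjusted p = 0.0433, edgeR) and Inos −0.67 (adjusted p = 0.000678). The third was asRNA:CR43767, with −2.87 (adjusted p = 0.0573). The other increases named by rule were CG34276 (1.09), CG31265 (0.78), CG42329 (2.06), the maltase gene Mal-A6 (0.96), lcs, and Jon44E (1.20), a Jonah protease gene with 5.50 and 3.91 CPM in Hr3 RNAi against 1.48 and 1.51 CPM in the control at 12–14 hours, all as log2 fold changes over both windows. Most of these directions turned with other reference libraries. CG34276 kept its direction at a smaller size, with 0.28 (adjusted p = 0.25, edgeR) against all mCherry controls. Against zfh2 RNAi and Sox102F RNAi it was 0.22 (adjusted p = 0.723, edgeR). With all mCherry controls Jon44E was −0.87, Mal-A6 −0.25, CG42329 −0.23 and CG31265 −0.72 (adjusted p = 0.0299, edgeR), and with zfh2 RNAi and Sox102F RNAi as the reference Jon44E was −0.51, Mal-A6 −0.39, lcs −0.67 and asRNA:CR43767 0.45. The counts also moved with single libraries: without Hr3 RNAi replicate 1 of 12–14 hours, or without either control library of that window, no gene was called higher or lower by edgeR, and without control replicate 2 of 16–18 hours 522 were called higher and 68 lower.

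No gene passed edgeR's test at 16–18 hours alone: 811 of 11175 genes had an unadjusted p under 0.05, and the smallest adjusted p was 0.442. DESeq2's Wald test called 21 genes higher (0.148% of 14163) and 7 lower (0.0494%), or 0.198% in either direction. The 2 control libraries of this window differed more than other replicate pairs, and without control replicate 2 edgeR called 219 higher and 1803 lower. Without Hr3 RNAi replicate 2 it called 5 higher. Genes with DESeq2 calls, chosen after their values were seen, included Lcp2, with a log2 fold change of 2.28 and a DESeq2 adjusted p of 4.15e-11. Hsp70Bb had a DESeq2 adjusted p of 2.81e-05. BomS1, an immune peptide gene, had 10.7 and 5.70 CPM in Hr3 RNAi, against 2.19 and 2.13 CPM in the control (DESeq2 adjusted p = 0.000594). At 12–14 hours the same gene had 1.08 and 2.47 CPM in Hr3 RNAi, against 2.23 and 10.6 CPM in the control, where control replicate 2 was high.

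The early zygotic genes bnk and SNCF, which act when the first cells form, gave unlike values within the Hr3 RNAi group at 16–18 hours. SNCF had 160 and 61 counts in Hr3 RNAi, against 0 and 1 in the control, and bnk had 150 and 38 counts in Hr3 RNAi, against 0 and 1 in the control. Replicate 1 was the higher library for both. Such reads were not particular to this knockdown, since 10 of 38 control libraries of the window were at or above the lower Hr3 RNAi library for SNCF and 7 of 38 for bnk.

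No gene differed between the windows by edgeR (0 of 11577, with 999 at an unadjusted p under 0.05), and 2232 were called without control replicate 2 of 16–18 hours and 24 without Hr3 RNAi replicate 2 of that window. DESeq2 called 17 higher (0.15% of 11351) and 25 lower (0.22%), or 0.37% in either direction. The 4 genes with the smallest p were Jon25Bi, betaTry, Jon25Bii and Pig1, and all had a more positive change at 12–14 hours. Jon25Bi had 21.7 and 27.8 CPM in Hr3 RNAi at 16–18 hours, against 33.4 and 28.5 CPM in the control. The knockdown was thus below its control by a log2 fold change of −0.32, and the change at 16–18 hours minus that at 12–14 hours was −3.19 ± 0.35 (adjusted p = 0.139, edgeR). For betaTry that difference was −3.04 ± 0.36 (adjusted p = 0.139) and for Jon25Bii −2.67 ± 0.37 (adjusted p = 0.279). These genes do not stand for all digestive genes: at 16–18 hours the midgut list had 11 of 16 members positive with a median of 0.12, genes named Try 9 of 10 with a median of 0.20, maltase genes 8 of 10 with 0.39 and Jonah protease genes 4 of 16 with −0.48, none of them called by edgeR. In the same window DESeq2 called 1 midgut gene and 1 Jonah gene lower, 1 maltase gene higher and no gene named Try. Of the 65 genes higher at 12–14 hours, 41 had the same sign at 16–18 hours, and of the 45 lower ones 11 of 44 tested did. Cuticle genes were among those that did not: at 16–18 hours the 56 Cpr genes tested had a median of 0.32, with 54 positive, against a median of 0.03 over all genes, and none was called by edgeR (DESeq2 called 2).

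None of the regulators around Hr3 in the ecdysone cascade was called by edgeR in either window. At 16–18 hours this says little, since no gene of any kind passed there, and the members ranged from −1.09 to 0.45 on the log2 scale. Of the 18 tested at 12–14 hours none was called (1 was called higher by DESeq2), where edgeR called 0.984% of all genes. At that share no call among 18 genes says little as well. Of these 18, 8 were positive and 10 negative, and the median was −0.11. The target gene ftz-f1, a nuclear receptor gene, had 571 and 608 CPM in Hr3 RNAi, against 626 and 682 CPM in the control at 12–14 hours (log2 fold change −0.15 ± 0.10, adjusted p = 0.66, edgeR). In the later window it had 326 and 237 CPM in Hr3 RNAi, against 465 and 298 CPM in the control (−0.44 ± 0.29, adjusted p = 0.473). The control libraries alone spanned more than the difference at 16–18 hours, and the knockdown and control libraries overlapped. At 12–14 hours both Hr3 RNAi libraries were below both controls. By total counts alone, none of the 10 mCherry control libraries and 1 of 23 libraries of other knockdowns was as low, while on the TMM scale the 8 other controls ranged from 587 to 852 CPM. Eip74EF, a first-tier regulator, had 27.6 and 29.4 CPM in Hr3 RNAi, against 34.3 and 36.1 CPM in the control. By total counts, none of the 10 controls and none of the 23 libraries was as low. The median of those 23 libraries was 70.5 CPM, so the own control of Hr3 RNAi was low for Eip74EF too.

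Of the receptor pair, EcR had 135 and 133 CPM in Hr3 RNAi, against 143 and 150 CPM in the control at 12–14 hours, and usp had 37.1 and 30.8 CPM in Hr3 RNAi, against 41.1 and 36.2 CPM in the control. Neither passed (adjusted p = 0.681 for EcR and 0.604 for usp, edgeR). Eip75B, the opponent of Hr3, had 25.3 and 18.7 CPM in Hr3 RNAi, against 14.8 and 18.1 CPM in the control at 12–14 hours, with a log2 fold change of 0.42 ± 0.15 (adjusted p = 0.298). Hr4, a nuclear receptor gene of the same cascade, had 117 and 77.7 CPM in Hr3 RNAi, against 66.1 and 68.8 CPM in the control. Both knockdown libraries were higher, and this was the gene that DESeq2 called, while edgeR gave a log2 fold change of 0.53 ± 0.15 with an adjusted p of 0.184. The transcription factor genes Eip74EF, br and Blimp-1 had log2 fold changes of −0.30, 0.09 and −0.22 at 12–14 hours and 0.45, 0.27 and 0.04 at 16–18 hours. Genes for ecdysone synthesis, uptake and turnover gave no call in 17 tested at 12–14 hours by edgeR or DESeq2, with a median of 0.01. Among 20 nuclear receptor genes tested, Hr3 alone was called by edgeR, and DESeq2 called Hr3 lower and Hr4 higher.

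Markers of other tissues gave few calls at 12–14 hours, where 0.984% of all genes tested were called by edgeR and 1.17% by DESeq2. At that share lists of this size would hold few or no calls, so a lack of calls says little about these tissues. No gene was called by edgeR or DESeq2 among 19 neuron genes (median log2 fold change 0.11, 17 positive), 14 sensory organ genes (0.21), 15 glia genes (0.08), 18 somatic muscle genes (0.03), 28 genes of chitin synthesis and the apical matrix (0.13), 15 cuticle tanning genes (0.08), 10 tracheal genes (0.14), 12 glycolytic enzymes (−0.05), 19 neuropeptide and ecdysis genes (0.12) or 9 amnioserosa and yolk genes (0.19). The 21 Osiris genes tested were all positive, with a median of 0.42. None of them was called by edgeR, and 2 were by DESeq2. Basement membrane and haemocyte genes had a median of 0.05 over 18, with none called by edgeR and 1 by DESeq2. Immune peptide genes had a median of −1.49 over 14 tested, with BomBc2 called lower. Their summed levels were 8.01 and 18.2 CPM in Hr3 RNAi, against 10.9 and 57.4 CPM in the control, so that the groups overlapped and control replicate 2 stood apart. At 16–18 hours the median was 1.28 over 13 tested, with none called by edgeR and 3 by DESeq2, and the sums were 54.6 and 24.9 CPM in Hr3 RNAi, against 15.5 and 18.3 CPM in the control, with Hr3 RNAi replicate 1 the highest. In the later window, 17 of 18 muscle genes were positive with a median of 0.22, and 17 of 19 neuron genes with a median of 0.16, none of them called by edgeR or DESeq2. There, 16 of the 18 muscle genes had both knockdown libraries above both controls, an arrangement found in 27.3% of all genes tested.

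**Figure D4:**
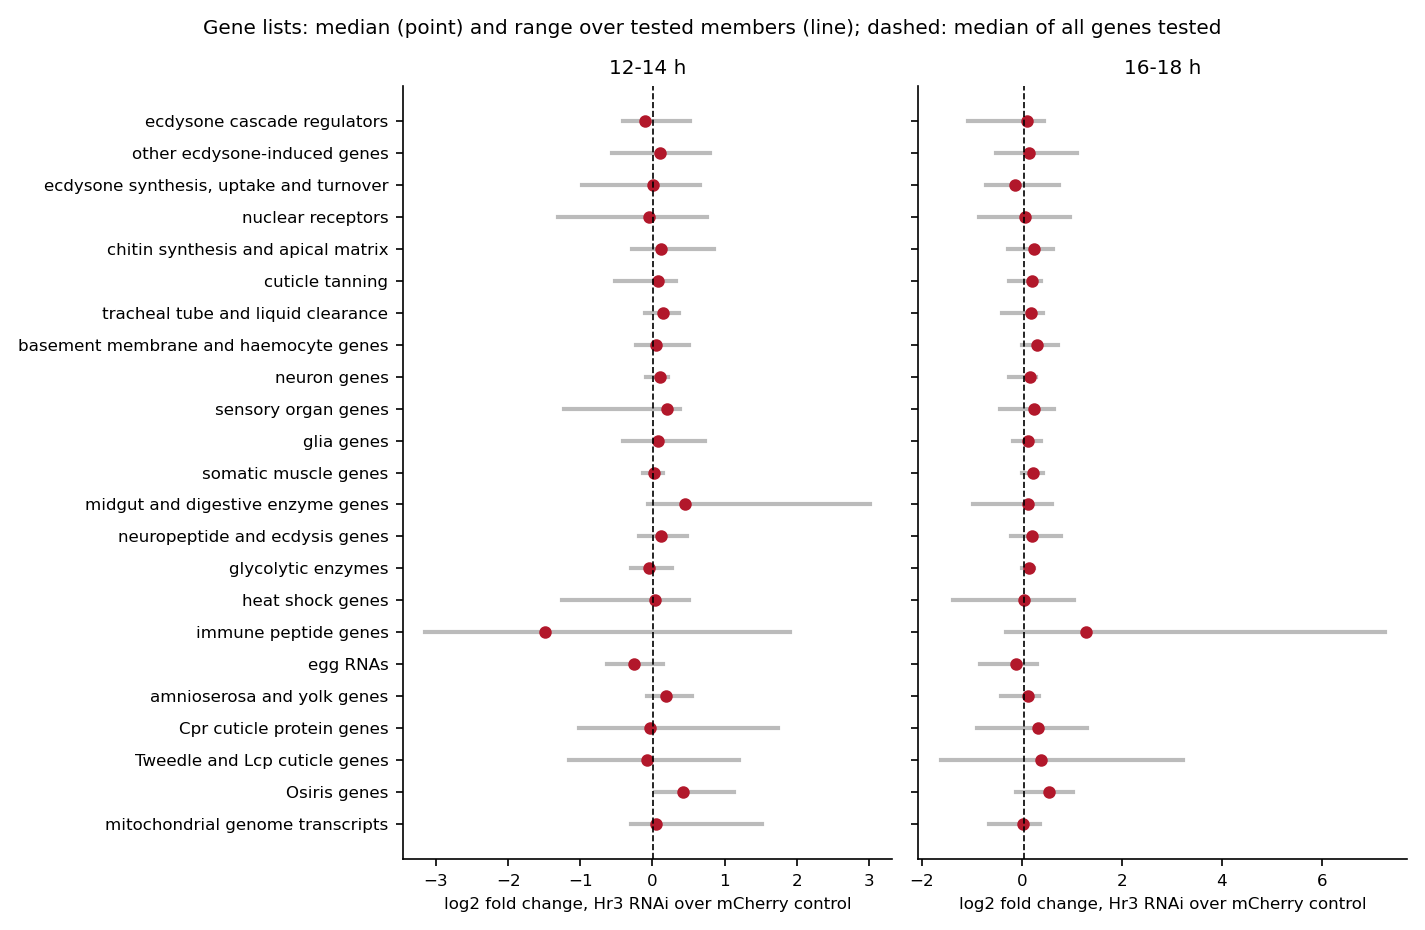
Median log2 fold change of Hr3 RNAi over its mCherry control for each gene list at 12–14 and 16–18 hours, with the range of its members and a line at the median of all genes tested. The midgut list lies highest at 12–14 hours among lists with a called member (median 0.45), and the immune peptide list lies at −1.49 at 12–14 hours and at 1.28 at 16–18 hours, with control replicate 2 high in the first and Hr3 RNAi replicate 1 in the second.

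At 0–1.5 hours, before the zygotic genome is broadly active, edgeR called none of 9602 genes (431 had an unadjusted p under 0.05, and the smallest adjusted p was 0.734), and DESeq2 called 2 higher (0.227% of 881), both transcripts of the mitochondrial genome. The control libraries of this window were unlike each other. Control replicate 1 held 107 counts of Jon25Bi and 47 of betaTry, genes of the late embryo, against 0 and 1 in control replicate 2. The Hr3 RNAi libraries had 0 and 0 counts of Jon25Bi, and 0 and 1 of betaTry. The medians of somatic muscle genes (−0.96) and neuron genes (−0.95) were negative, with 16 of 18 and 17 of 19 members below 0 and none called by edgeR or DESeq2. Summed over their list, muscle genes had 1385 and 987 CPM in Hr3 RNAi, against 1592 and 1824 CPM in control replicates 1 and 2. Neuron genes had 408 and 397 CPM in Hr3 RNAi, against 401 and 416 CPM in control replicates 1 and 2. The part of either control library in these medians was not tested.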

How the data were processed

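Counts per gene were deposited by the authors as 1 table per library. The submitters' processing notes name STAR 2.7.3a, HTSeq 0.12.4, DESeq2 1.24.0 and the genome build dm6. Libraries came from a stranded poly(A) kit, reads over more than 1 gene were left out, and the strand setting is not given in the sources used here. Rows that name no gene (4.65 to 5.76% of counts) were removed.

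Counts were filtered with filterByExpr (minimum count 10) and then normalised by TMM. They were tested in R 4.3.3 with the quasi-likelihood test of edgeR 4.0.16 (limma 3.58.1), with Benjamini-Hochberg adjustment over all genes left by the filter. DESeq2 1.42.0 was an alternative. Calls needed an adjusted p no higher than 0.1 and a log2 fold change beyond 0.5 in size. Standard errors are the log2 fold change divided by the root of F. CPM are counts scaled by the TMM-scaled total within the 4 libraries of a window, with other libraries brought to that scale. Sums over gene lists that are set against other controls were scaled over the window's mCherry controls and its Hr3, zfh2 and Sox102F RNAi libraries. They were then brought to the scale of the 4 libraries. The fits were tested on simulated data.

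Named genes are Hr3, the 8 largest increases and 8 largest decreases per fit with the knockdown libraries on 1 side of the control in every window of the fit, genes called alike at 12–14 and 16–18 hours (none), the 4 smallest p of the window difference, called members of 23 gene lists and the known Hr3 circuit. Members and lists were chosen with earlier results of these data known. With 2 libraries a group, p-values measure only the spread between these libraries. Alternatives left out each library, changed the normalisation, filter, test, threshold or control libraries, or added a replicate block.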

Additional observations from a re-analysis of the deposited data

Results flagged for a closer look

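For 8 named genes the Hr3 RNAi libraries lay on opposite sides of their control in the 2 windows. The values are the log2 fold change at 16–18 hours minus that at 12–14 hours, and edgeR's test of this difference passed the threshold for none of them. The digestive genes among them, which were named for their small p, were above the control at 12–14 hours and below it at 16–18 hours: Jon25Bi differed by −3.19, betaTry by −3.04 and Jon25Bii by −2.67. Pig1 differed by −4.51, with 21 and 15 counts in Hr3 RNAi at 12–14 hours against 1 and 1 in the control. CG6295 differed by −5.76 in the fit, a value that rests on 1 and 0 control counts at 12–14 hours. Cuticle genes were below the control at 12–14 hours and above it at 16–18 hours: Lcp65Af differed by 1.34 and Cpr78Cb by 0.97. CG45207 differed by 1.93 in the same direction.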

How the results depend on the processing

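Directions and counts depended most on the control libraries. With zfh2 RNAi and Sox102F RNAi as the reference, 12–14 hours gave 10 genes higher and 6 lower, 16–18 hours 16 and 8, and both windows 26 and 31. With all mCherry controls of a window these were 1 and 1, 1200 and 1594, and 2262 and 3270, with 198 genes differing between windows. In 1 fit with zfh2 RNAi and Sox102F RNAi, 12–14 hours gave 1 higher and 0 lower, and both windows 6 higher. DESeq2 called 21 higher and 7 lower at 16–18 hours, 114 and 9 over both windows, 42 between windows and 2 at 0–1.5 hours. Without the filter, 12–14 hours gave 20 higher and 24 lower. At an adjusted p of at most 0.05 it gave 30 higher and 25 lower, and both windows 2 and 1. Hr3 at 12–14 hours was −1.28 (adjusted p = 0.403, edgeR) in the joint fit and −1.17 (0.206) against all controls, and at 16–18 hours −1.05 (0.0797) against all controls.

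Leaving out 1 library gave 69 to 294 genes higher and 71 to 115 lower at 12–14 hours, 0 to 219 and 0 to 1803 at 16–18 hours, 0 to 522 and 0 to 68 over both windows, 0 to 2232 between windows and 0 to 67 at 0–1.5 hours. The lone library of an arm is then assumed to vary like the other group.

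Replicate numbers are shared by both arms, but same-numbered libraries did not deviate together in both windows (correlation 0.18 at 12–14 hours and −0.38 at 16–18 hours). The main fits used no pairing, and these correlations cannot show whether same-numbered libraries were collected together. With a replicate block, 12–14 hours gave 215 higher and 95 lower, and both windows 0 and 0. A crossed block, added after seeing the data, gave 23 higher and 5 lower at 16–18 hours.

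With zfh2 RNAi and Sox102F RNAi as the reference, these log2 fold changes took the other sign at 12–14 hours: Jon25Bi −1.56, Jon25Bii −1.52, betaTry −0.67, epsilonTry −0.63, alphaTry −0.57, Jon65Ai −0.86, CG17362 −0.84, CG6295 −1.46, CG9040 −0.82, lcs −0.48, png 0.18 and asRNA:CR43767 0.91. Over both windows they were Jon25Bi −1.42, Jon44E −0.51, Mal-A6 −0.39, lcs −0.67 and asRNA:CR43767 0.45. With all mCherry controls they were, at 12–14 hours, Jon25Bi −0.41, Jon25Bii −0.93, epsilonTry −1.42, alphaTry −1.16, Jon65Ai −0.99, CG6295 −0.083, CG9040 −0.18, osk 1.50 and png 1.46, and over both windows Jon25Bi −1.37, Jon44E −0.87, Mal-A6 −0.25, CG31265 −0.72 and CG42329 −0.23. Other values kept their sign but shrank with zfh2 RNAi and Sox102F RNAi as the reference. Among them were ImpE1 at 12–14 hours (0.13), and Hsp70Bb (−0.44) and CG34276 (0.22) over both windows. The cause was not tested. Counts near 0 limit genes such as lcs and CG9040 more than depth elsewhere.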
